A study of Homo sapiens with 12 samples.

Results

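The genes described here encode 9 proteins that bind AU-rich elements, short stretches of A and U in the 3′ untranslated region (UTR) of many short-lived mRNAs. They are ZFP36, ZFP36L1, ZFP36L2, ELAVL1, HNRNPD, KHSRP, AUH, TIA1 and TIAL1. Members were taken by gene symbol from a set drawn up with earlier results of these data known, and no threshold on a measured value selected them. The Ensembl identifiers of all 9 were found among the 63241 genes of the count table. Every member passed the filter on low counts.

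Total RNA was sequenced from HCT116, a human colorectal carcinoma cell line, in 4 groups of 3 libraries. The first group was a line of genotype POLR1A-AID1, in which an auxin-inducible degron marks the largest subunit of RNA polymerase I for destruction. It received 1 µg/ml doxycycline, which switches on the plant receptor OsTIR1, from 24 h before 500 µM indole-3-acetic acid (IAA) for 8 h. The second was a POLR2A-AID2 line, with the degron on the largest subunit of RNA polymerase II, given 1 µM 5-Ph-IAA for 8 h. The third was wild-type HCT116 given 5 µg/mL actinomycin D, a drug that binds DNA and blocks transcription, for 6 h. The control was wild-type HCT116 with DMSO for 8 h. By these times the actinomycin D group also differs from every other group in length of treatment, which cannot be told apart from the drug. The extraction text gives 6 h as the time of harvest for all conditions, and this difference from the titles could not be settled. No library of either degron line without its ligand was analysed here, so cell line, inducer and ligand cannot be told apart from loss of the polymerase subunit. Replicates were dishes of cells treated on a single day and called technical by the submitters, so p-values measure only the spread between dishes.

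Proteins that bind AU-rich elements decide how long such mRNAs last and how well they are translated. ZFP36 (tristetraprolin) and its paralogues ZFP36L1 and ZFP36L2 recruit the CCR4-NOT deadenylase and speed decay, and they also act on their own mRNAs and on each other's. ELAVL1 (HuR) competes for such sites and usually stabilises its targets. HNRNPD (AUF1) and KHSRP (KSRP) mostly promote decay, TIA1 and TIAL1 (TIAR) repress translation and gather in stress granules, and AUH binds AU-rich RNA but is best known as a mitochondrial enzyme of leucine breakdown.

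Several of these mRNAs carry AU-rich elements of their own. The sites below are shown because they set the ZFP36 family and ELAVL1 apart from HNRNPD, KHSRP and AUH, whose 3′ UTRs held no TATTTAT. Each is 29 bases of the 3′ UTR in the sense of the mRNA, written as DNA from 5′ to 3′, with ATTTA, the core pentamer, in capitals. They were read from GRCh38 with GENCODE 29 gene models. For the first 4 the window holds the nonamer TTATTTATT, the preferred site of ZFP36 proteins, and for TIA1 and TIAL1 it holds the heptamer TATTTAT.
ZFP36 (chr19:39409196-39409224, plus strand): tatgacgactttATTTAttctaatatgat
ZFP36L1 (chr14:68788077-68788105, minus strand): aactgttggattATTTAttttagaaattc
ZFP36L2 (chr2:43223448-43223476, minus strand): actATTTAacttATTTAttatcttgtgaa
ELAVL1 (chr19:7961832-7961860, minus strand): acctATTTAtgtATTTATTTAttgaagtg
TIA1 (chr2:70212590-70212618, minus strand): cagatacaatgtATTTATTTAaaagattc
TIAL1 (chr10:119575555-119575583, minus strand): gaaaatgaaaatATTTAttttaaaaattg

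Motifs were searched on the mRNA strand only, overlapping copies were counted, and every TTATTTATT also counts as a TATTTAT and an ATTTA. The 3′ UTR of ZFP36 (716 bases) held 5 copies of ATTTA, 3 of TATTTAT and 1 of TTATTTATT. In ZFP36L1 (1874 bases) the counts were 8, 3 and 1, and in ZFP36L2 (1920 bases) they were 5, 3 and 1. ELAVL1 had the longest 3′ UTR of the 9 in these gene models, at 4907 bases, with 13, 5 and 1 copies. Length alone brings such letters, so each count was set beside 3′ UTRs of 0.8 to 1.25 times the same length. Of those, 4.85% held a TTATTTATT for the length of ZFP36, 9.28% for ZFP36L1, 9.75% for ZFP36L2 and 22.1% for ELAVL1. At least 3 copies of TATTTAT were found in 1.23% of 3′ UTRs as long as that of ZFP36, 4.60% for ZFP36L1 and 4.96% for ZFP36L2, and at least 5 in 5.08% for ELAVL1. The pentamer was less unusual: as many ATTTA occurred in 5.99% of 3′ UTRs as long as that of ZFP36, 14.4% for ZFP36L1, 16.3% for TIA1, 40.5% for ZFP36L2, 40.5% for ELAVL1 and 61.6% for TIAL1. TIA1 had 13 ATTTA in 3278 bases and TIAL1 had 7 in 3866 bases, each with 1 TATTTAT, which 58.3% and 62.9% of 3′ UTRs of their lengths also held. HNRNPD (1690 bases) and AUH (536 bases) held 2 and 3 copies of ATTTA, and KHSRP (767 bases) held none. A match is a description of letters and shows no binding.

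The gene table was deep enough for every member. Totals of estimated counts ran from 18797087 to 21802364 in POLR1A-depleted cells, 11289272 to 15037531 in POLR2A-depleted cells, 20302228 to 27394059 under actinomycin D and 12235119 to 17535790 in controls. Because a degron acts on the protein, the mRNA of the tagged gene does not test the labels. POLR1A mRNA was 145 to 151 CPM in POLR1A-depleted cells against 230 to 249 CPM in controls. POLR2A mRNA was 1070 to 1110 CPM in POLR2A-depleted cells against 468 to 561 CPM in controls. Neither shift was particular to the tagged line: POLR1A mRNA was 128 to 142 CPM in POLR2A-depleted cells, and POLR2A mRNA was 908 to 945 CPM in POLR1A-depleted cells. All 8 markers of colorectal epithelium were detected in every group, with summed levels of 2040 to 2190 CPM in POLR1A-depleted cells, 2510 to 2710 CPM in POLR2A-depleted cells, 3350 to 3640 CPM under actinomycin D and 3680 to 4170 CPM in controls. Of those 8 epithelial markers, 6 were called lower in POLR1A-depleted cells, 6 in POLR2A-depleted cells and 4 under actinomycin D, and 2 were called higher in each. Markers of other tissues also shifted, and not in the POLR2A-depleted libraries alone. In POLR2A-depleted cells the 5 blood markers summed to 7.10 to 9.07 CPM against 2.10 to 2.94 CPM in controls. The 2 liver markers summed there to 4.38 to 5.63 CPM against 0 to 0.0584 CPM in controls, where ALB and CD14 had no counts. The POLR2A-depleted libraries also had more genes with a count, 37206 to 39025 against 30641 to 31595 in controls. Whether the blood and liver markers were part of that wider rise was not tested. The control blood sum was mostly HBB, at a mean of 2.35 CPM. In POLR2A-depleted cells HBB had 3.2 CPM, CD14 3.82 CPM and ALB 4.6 CPM. The 5 fibroblast markers summed to 21.6 to 22.9 CPM in POLR1A-depleted cells, 12 to 17.4 CPM in POLR2A-depleted cells and 10.6 to 12.3 CPM under actinomycin D, against 7.19 to 8.07 CPM in controls. Nearly all of this was COL1A1, with means of 22.1, 14.1 and 10.9 CPM in those treatments and 7.46 CPM in controls. The 3 neural markers summed to 70.1 to 73.0 CPM in POLR1A-depleted cells, 37.2 to 39.0 CPM in POLR2A-depleted cells and 110 to 114 CPM under actinomycin D, against 101 to 118 CPM in controls. That sum was likewise nearly all SYT1, with means of 70.2, 35.5 and 111 CPM and 106 CPM in controls. The part of these marker shifts in the results on the 9 genes was not tested, and in bulk RNA fewer cells of a type and less RNA per cell cannot be told apart.

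Levels below are in CPM, which puts counts on a common library size after TMM scaling, as mean ± SD over 3 libraries. Fold changes are on the log2 scale with the standard error (SE) of the fit, and adjusted p-values come from edgeR's quasi-likelihood test with Benjamini-Hochberg adjustment over all 23599 genes tested, called at 0.05. Per kilobase of exon, KHSRP and ZFP36L1 were the most abundant members in controls, at 117 ± 6.90 and 93.5 ± 5.99 CPM per kb. HNRNPD followed at 44.0 ± 4.62, TIAL1 at 27.9 ± 0.294, ELAVL1 at 23 ± 2, ZFP36 at 19.8 ± 3.22 and ZFP36L2 at 17.9 ± 1.12 CPM per kb. The lowest were TIA1 at 8.93 ± 0.543 and AUH at 5.73 ± 0.617 CPM per kb. ELAVL1 and ZFP36, and ZFP36 and ZFP36L2, differed by no more than their spread. Separation of 3 libraries from 3 was common in these data. In either direction, 47.9% of all tested genes did not overlap controls in POLR1A-depleted cells, 65.2% in POLR2A-depleted cells and 58.1% under actinomycin D.

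**Figure D1:**
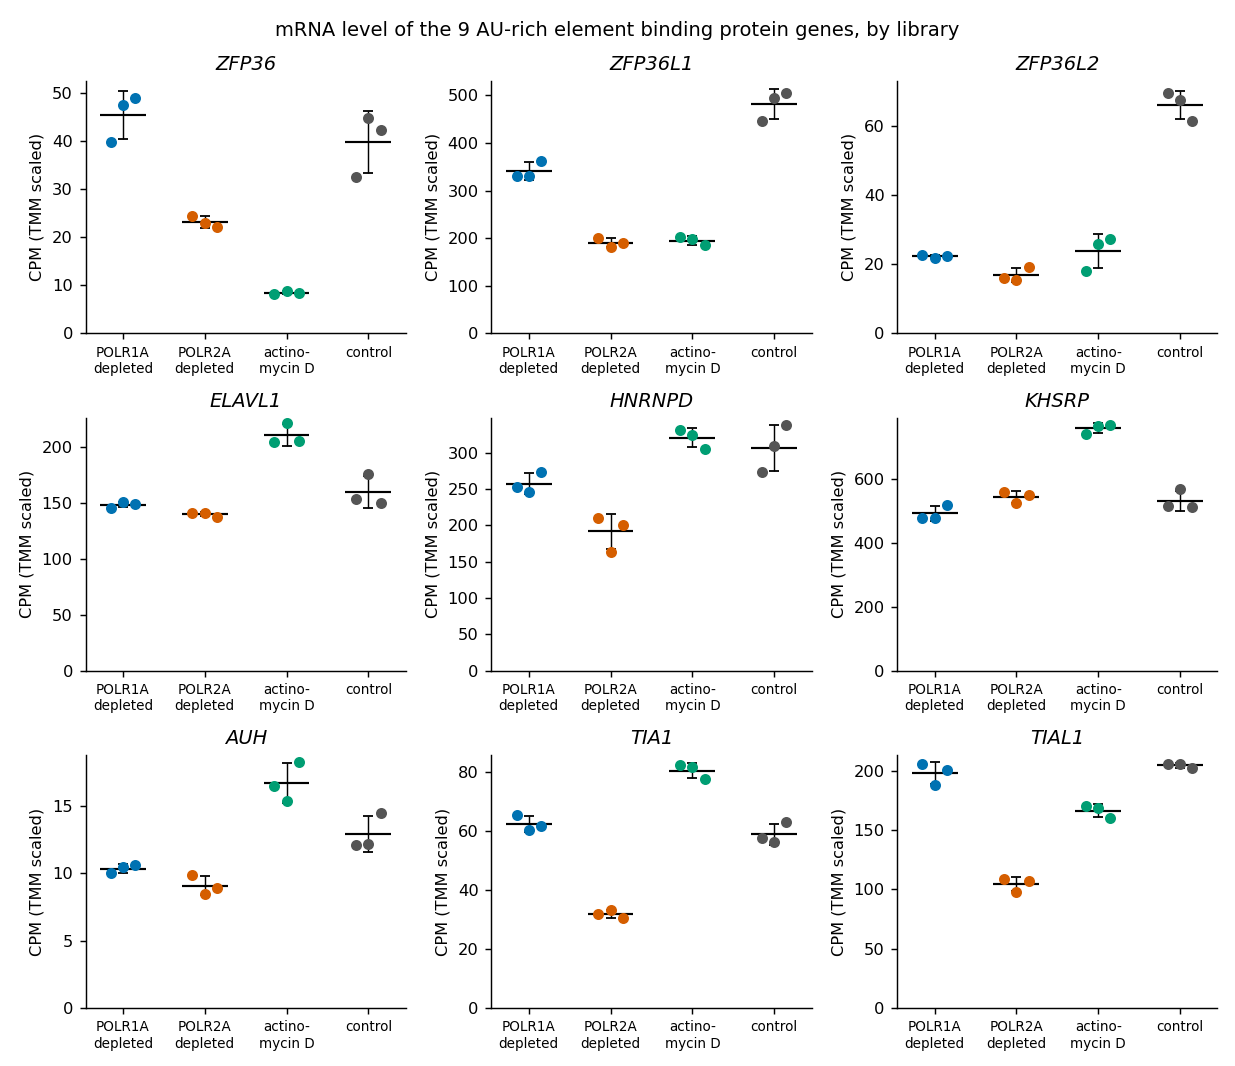
Level of each of the 9 genes in CPM (linear axis from 0, TMM scaled) in the 12 libraries; points are libraries, the horizontal line is the mean of 3 and the bar is ± SD. ZFP36 sits at 8.14 to 8.76 CPM under actinomycin D against 32.5 to 44.7 CPM in controls, while ELAVL1 and KHSRP are highest under actinomycin D.

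In each comparison with controls the largest fall among the 9 was in the decay-promoting ZFP36 family, in ZFP36L2 in both depletions and in ZFP36 under actinomycin D, but the 3 paralogues did not fall together. ZFP36 (ENSG00000128016, chr19:39406813-39409412, plus strand) is the founding member, an immediate early gene induced by growth factors and cytokines. It had 39.7, 47.4 and 49.0 CPM in POLR1A-depleted cells, 24.5, 22.9 and 22.1 CPM in POLR2A-depleted cells and 8.14, 8.76 and 8.41 CPM under actinomycin D, against 32.5, 44.7 and 42.2 CPM in controls. The POLR1A-depleted and control ranges overlapped, and the other 2 treatments each lay below every control library. Under actinomycin D the fall was 2.24 (SE 0.11, adjusted p = 1.2e-12), to 0.212 of the control level, and in POLR2A-depleted cells it was 0.78 (SE 0.11, adjusted p = 2.51e-06). In POLR1A-depleted cells the change of 0.18 (SE 0.10, adjusted p = 0.159) did not pass the threshold, though it did at 0.28 without POLR1A-depleted replicate 1 (adjusted p = 0.0454) and at 0.29 without control replicate 2 (adjusted p = 0.0433), and at 0.23 with libraries scaled by their totals alone (adjusted p = 0.0468).

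ZFP36L1 (ENSG00000185650, chr14:68787660-68796253, minus strand) was the most abundant member of the family in each group. It had 331, 330 and 362 CPM in POLR1A-depleted cells, 200, 182 and 190 CPM in POLR2A-depleted cells and 202, 198 and 185 CPM under actinomycin D, against 447, 494 and 506 CPM in controls. All 9 treated libraries lay below all 3 controls. It fell by 0.50 in POLR1A-depleted cells (SE 0.06, adjusted p = 2.89e-07), by 1.34 in POLR2A-depleted cells (SE 0.06, adjusted p = 4.99e-14) and by 1.31 under actinomycin D (SE 0.06, adjusted p = 4.37e-14). The POLR2A-depleted and actinomycin D libraries overlapped.

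ZFP36L2 (ENSG00000152518, chr2:43222402-43226609, minus strand), known for roles in blood cell and oocyte development in mice, fell in all 3 treatments. Its levels were 22.6, 21.7 and 22.5 CPM in POLR1A-depleted cells, 16.1, 15.4 and 19.2 CPM in POLR2A-depleted cells and 18.2, 26 and 27.3 CPM under actinomycin D, against 69.4, 67.4 and 61.5 CPM in controls. Every treated library lay below every control. The fall of 1.57 in POLR1A-depleted cells (SE 0.12, adjusted p = 1.5e-08) left 0.337 of the control level, and 3.61% of all tested genes had a lower fold change in that comparison. It fell by 1.97 in POLR2A-depleted cells (SE 0.12, adjusted p = 9.45e-10) and by 1.46 under actinomycin D (SE 0.12, adjusted p = 1.51e-08). Actinomycin D replicate 1, at 18.2 CPM, lay below the other two.

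ELAVL1 (ENSG00000066044, chr19:7958579-8005659, minus strand), the stabilising member, changed less and in the other direction under actinomycin D. It had 146, 151 and 149 CPM in POLR1A-depleted cells, 141, 141 and 138 CPM in POLR2A-depleted cells and 205, 222 and 206 CPM under actinomycin D, against 154, 176 and 150 CPM in controls. Only the actinomycin D libraries lay above the controls. The rise there was 0.40 (SE 0.06, adjusted p = 3e-06), or 1.32-fold. A fall of 0.19 in POLR2A-depleted cells passed the threshold (SE 0.06, adjusted p = 0.00643) but not with libraries scaled by their totals alone (-0.07, adjusted p = 0.297), and the value of -0.11 in POLR1A-depleted cells did not pass (SE 0.06, adjusted p = 0.156; -0.16 and adjusted p = 0.0318 without POLR2A-depleted replicate 2).

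HNRNPD and KHSRP, both linked to decay of AU-rich mRNAs, differed from each other. HNRNPD (ENSG00000138668, chr4:82352498-82374503, minus strand) had 253, 246 and 274 CPM in POLR1A-depleted cells, 210, 164 and 201 CPM in POLR2A-depleted cells and 331, 325 and 306 CPM under actinomycin D, against 274, 309 and 338 CPM in controls. It was lowest in POLR2A-depleted cells, where it fell by 0.68 (SE 0.09, adjusted p = 2.11e-05). Its actinomycin D libraries lay within the control range, with a difference of 0.06 (SE 0.09, adjusted p = 0.603). A fall of 0.26 in POLR1A-depleted cells (SE 0.09, adjusted p = 0.0379) lost its call without POLR1A-depleted replicate 1 (-0.24) or 2 (-0.22), actinomycin D replicate 1 (-0.25) or 2 (-0.25), or control replicate 2 (-0.24) or 3 (-0.17).

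KHSRP (ENSG00000088247, chr19:6413348-6424794, minus strand) had 480, 480 and 521 CPM in POLR1A-depleted cells, 559, 525 and 550 CPM in POLR2A-depleted cells and 742, 769 and 771 CPM under actinomycin D, against 515, 569 and 514 CPM in controls. The actinomycin D libraries stood above all others. There KHSRP rose by 0.51 (SE 0.05, adjusted p = 3e-08), or 1.43-fold. It was the only member without a call in POLR2A-depleted cells, at 0.03 (SE 0.05, adjusted p = 0.618), a value that passed with library totals alone (0.16, adjusted p = 0.00255). In POLR1A-depleted cells it was -0.11 (SE 0.05, adjusted p = 0.113; -0.16 and adjusted p = 0.0171 without POLR2A-depleted replicate 2).

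TIA1 and TIAL1, closely related translational repressors, moved alike in POLR2A-depleted cells and apart under actinomycin D. TIA1 (ENSG00000116001, chr2:70209444-70248660, minus strand) had 65.6, 60.3 and 61.7 CPM in POLR1A-depleted cells, 31.7, 33.2 and 30.6 CPM in POLR2A-depleted cells and 82.4, 81.8 and 77.7 CPM under actinomycin D, against 57.6, 56.3 and 63.1 CPM in controls. TIAL1 (ENSG00000151923, chr10:119571802-119597029, minus strand) had 206, 188 and 201 CPM in POLR1A-depleted cells, 109, 98.0 and 107 CPM in POLR2A-depleted cells and 170, 169 and 160 CPM under actinomycin D, against 206, 206 and 202 CPM in controls. Under actinomycin D all TIA1 libraries lay above the controls and all TIAL1 libraries below them. TIA1 rose there by 0.45 (SE 0.06, adjusted p = 1.63e-06), and TIAL1 fell by 0.30 (SE 0.05, adjusted p = 3.61e-05), a fall that turned to a rise of 0.60 with libraries scaled to mitochondrial mRNAs. In POLR2A-depleted cells TIA1 fell by 0.89 (SE 0.07, adjusted p = 1.87e-10) and TIAL1 by 0.97 (SE 0.05, adjusted p = 1.76e-12). Neither passed in POLR1A-depleted cells, at 0.08 for TIA1 (SE 0.06, adjusted p = 0.321) and -0.05 for TIAL1 (SE 0.05, adjusted p = 0.506). TIA1 shares exon sequence on the same strand with C2orf42, which had 2344.2 counts over 12 libraries against 13349.1 for TIA1, so part of its count is uncertain.

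AUH (ENSG00000148090, chr9:91213815-91361913, minus strand) was the weakest member in controls. It had 10.0, 10.5 and 10.6 CPM in POLR1A-depleted cells, 9.85, 8.47 and 8.95 CPM in POLR2A-depleted cells and 16.5, 15.4 and 18.3 CPM under actinomycin D, against 12.1, 12.2 and 14.5 CPM in controls. No treated group overlapped the controls, a separation common over all tested genes, as given above. It rose by 0.37 under actinomycin D (SE 0.11, adjusted p = 0.0087) and fell by 0.51 in POLR2A-depleted cells (SE 0.12, adjusted p = 0.000915). The rise lost its call without actinomycin D replicate 3 (0.31, adjusted p = 0.0533) and with library totals alone (0.25, adjusted p = 0.0719). A fall of 0.32 in POLR1A-depleted cells (SE 0.12, adjusted p = 0.0311) lost its call without any 1 of the POLR1A-depleted libraries (-0.29, -0.32 and -0.33 for replicates 1 to 3), without control replicate 3 (-0.22), with library totals alone (-0.28) and with no filter on low counts (-0.33, adjusted p = 0.0505).

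**Figure D2:**
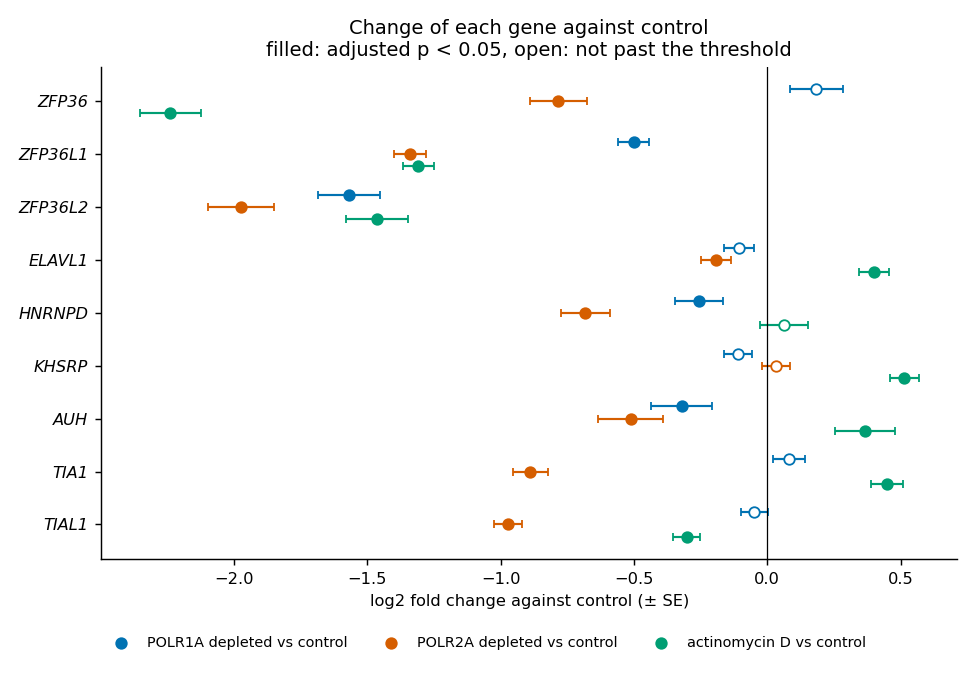
log2 fold change of each gene against control (linear axis; bars are ± SE; TMM scaling; filled points have an adjusted p under 0.05). ZFP36L1, ZFP36L2 and TIAL1 lie left of 0 in all 3 comparisons, TIAL1 without a call in POLR1A-depleted cells. ELAVL1, KHSRP, AUH, TIA1 and, without a call, HNRNPD lie right of 0 under actinomycin D. The falls of HNRNPD and AUH in POLR1A-depleted cells and of TIAL1 under actinomycin D turn positive under scaling to mitochondrial mRNAs.

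Counted together, 4 of 9 members were lower and 0 higher in POLR1A-depleted cells, where 18.6% of all tested genes were called lower and 20.5% higher, and 30.5% and 34.1% among the 10428 more abundant genes (average log2 CPM at or above 3, where the members lie). In POLR2A-depleted cells 8 were lower and 0 higher, against 28.2% lower and 33.2% higher over all tested genes. Among the more abundant genes the shares there were 50.1% lower and 22.7% higher. Under actinomycin D 4 members were higher and 4 lower, against 24.9% higher and 28.5% lower over all tested genes, and 44.6% and 34.5% among the more abundant ones. The members' median fold change was -0.11, -0.78 and 0.06 in POLR1A-depleted, POLR2A-depleted and actinomycin D cells, against medians of 0.01, 0.08 and -0.06 over all tested genes. The 3 comparisons share the control libraries.

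The 2 degron groups, which also differ in cell line, inducer and ligand, were set directly against each other. In POLR1A-depleted cells 6 members were higher and 1 lower than in POLR2A-depleted cells, where 29.1% of all tested genes were higher and 33.1% lower (52.4% and 21.8% of the more abundant ones). TIA1 was higher by 0.97 (SE 0.06, adjusted p = 3.21e-11), ZFP36 by 0.97 (SE 0.10, adjusted p = 1.03e-07), TIAL1 by 0.92 (SE 0.05, adjusted p = 3.13e-12) and ZFP36L1 by 0.84 (SE 0.06, adjusted p = 7.03e-11). HNRNPD was higher by 0.43 (adjusted p = 0.00106), and ZFP36L2 by 0.41 (adjusted p = 0.0119), which lost its call without POLR2A-depleted replicate 2 (0.32, adjusted p = 0.0754). KHSRP was lower by 0.14 (SE 0.05, adjusted p = 0.0248), a difference that held its call in 4 of 12 fits leaving out 1 library and turned to 0.50 under scaling to mitochondrial mRNAs. Without POLR1A-depleted replicate 1 or 2, POLR2A-depleted replicate 1 or 3, any actinomycin D library or control replicate 3 it was -0.12 to -0.10 with no call. ELAVL1 (0.09, adjusted p = 0.199) and AUH (0.19, adjusted p = 0.175) did not pass. ELAVL1 passed without control replicate 2 (0.11, adjusted p = 0.0355) and with no filter on low counts (0.18, adjusted p = 0.0256). Scaled to mitochondrial mRNAs, ELAVL1 (0.73, adjusted p = 2.35e-06) and AUH (0.84, adjusted p = 9.25e-05) both passed. All 9 members were called higher in POLR1A-depleted cells on that scaling.

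Actinomycin D, which blocks more than a single polymerase, was also compared with each depletion. The groups compared also differ in cell line, ligand, treatment time (6 h against 8 h by the titles) and, for POLR1A, doxycycline. These differences cannot be told apart from the block itself. Against POLR1A depletion 5 members were higher and 3 lower (24.4% and 31.8% of all tested genes, 41.1% and 37.8% of the more abundant ones), and against POLR2A depletion 7 were higher and 1 lower (31.1% and 39.8%, and 59% and 22.6%). ZFP36 was the member furthest below in both, by 2.42 against POLR1A depletion (SE 0.11, adjusted p = 1.78e-13) and by 1.46 against POLR2A depletion (SE 0.12, adjusted p = 1.28e-09). Scaled to mitochondrial mRNAs the second of these was -0.25 with no call (adjusted p = 0.18). TIA1 had the largest rise against POLR2A depletion, at 1.34 (SE 0.06, adjusted p = 1.3e-13), and 96.1% of tested genes had a lower fold change. ZFP36L1 was lower than in POLR1A-depleted cells by 0.81 (SE 0.06, adjusted p = 8.04e-11), a call lost under mitochondrial scaling (-0.24, adjusted p = 0.102). It stood at 0.03 from POLR2A depletion (SE 0.06, adjusted p = 0.636), at -0.21 with library totals alone (adjusted p = 0.000433) and at 1.24 under mitochondrial scaling (adjusted p = 7.77e-15). ZFP36L2 differed from POLR2A depletion by 0.51 (SE 0.13, adjusted p = 0.00207) although the ranges overlapped, a call lost with library totals alone (0.27, adjusted p = 0.0833). From POLR1A depletion it stood at 0.10 (SE 0.12, adjusted p = 0.487), or 0.27 without actinomycin D replicate 1 (adjusted p = 0.0185) and 0.66 under mitochondrial scaling (adjusted p = 0.00059). TIAL1 was higher than in POLR2A-depleted cells by 0.67 (SE 0.05, adjusted p = 4.32e-10) and lower than in POLR1A-depleted cells by 0.25 (SE 0.05, adjusted p = 0.000228; 0.31 under scaling to mitochondrial mRNAs).

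Within a library, the balance of the ZFP36 family shifted, and this balance does not depend on how libraries are scaled. ZFP36L1 made up 69.8% ± 1.38 of the family's counts per kb in POLR1A-depleted cells, 69.6% ± 0.442 in POLR2A-depleted cells and 78.0% ± 2.96 under actinomycin D, against 71.3% ± 0.995 in controls (SD, n = 3 each). The share of ZFP36 was 23.8% ± 1.68 in POLR1A-depleted cells, 21.7% ± 0.86 in POLR2A-depleted cells and 8.67% ± 0.209 under actinomycin D, against 15% ± 1.57 in controls (SD, n = 3 each). In both depletions every library had a higher ZFP36 share than any control, and under actinomycin D every library had a lower one. ZFP36L2 held 6.38% ± 0.384 in POLR1A-depleted cells and 8.63% ± 1.01 in POLR2A-depleted cells, below all controls, and 13.3% ± 2.76 under actinomycin D, within the spread of the 13.7% ± 1.61 in controls (SD, n = 3 each). These shares are a description, with no test.

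**Figure D3:**
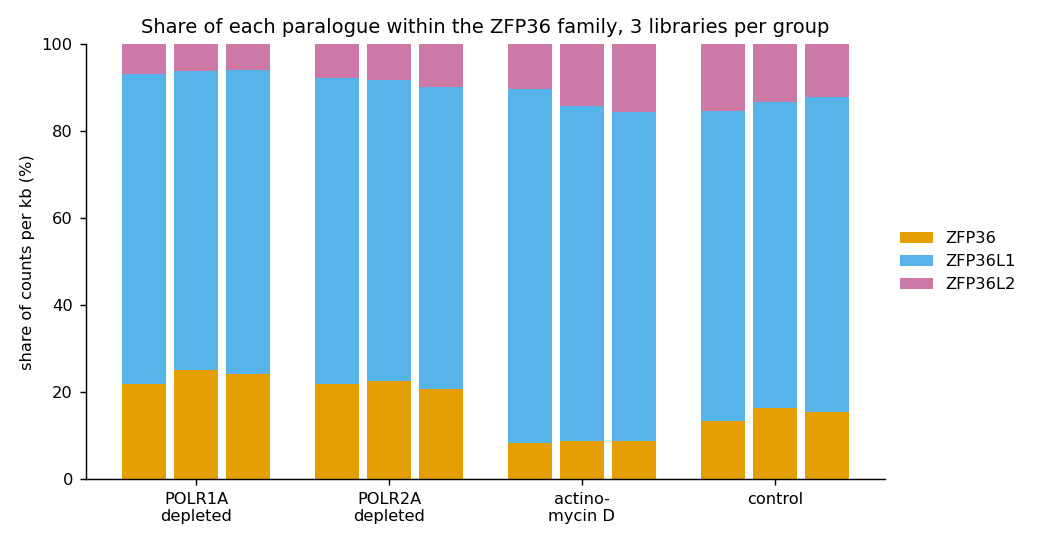
Share of ZFP36, ZFP36L1 and ZFP36L2 in the family's summed counts per kb of exon (stacked bars from 0 to 100%, a bar for each of the 12 libraries). ZFP36 holds 20.8 to 25.2% in the depleted libraries and 8.43 to 8.81% under actinomycin D, against 13.3 to 16.3% in controls.

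The ratio of the summed ZFP36 family to ELAVL1, per kb, set the decay-promoting family against the stabiliser in the same library. It was 4.43 ± 0.239 in POLR1A-depleted cells, 2.64 ± 0.113 in POLR2A-depleted cells and 1.60 ± 0.0382 under actinomycin D, against 5.73 ± 0.497 in controls (SD, n = 3 each). TIA1 to TIAL1 was 0.351 ± 0.00814 in POLR1A-depleted cells and 0.340 ± 0.0319 in POLR2A-depleted cells, against 0.321 ± 0.0231 in controls (SD, n = 3 each). The actinomycin D libraries had 0.541, 0.54 and 0.541. Under actinomycin D the ratio of this pair lay further from controls than the spread in any group.

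Scaling matters where transcription is blocked, since the total amount of mRNA may change. Scaled to the 13 mitochondrially encoded mRNAs, which a separate polymerase makes, the median fold change of all tested genes moved to 0.37 in POLR1A-depleted cells, -0.20 in POLR2A-depleted cells and 0.82 under actinomycin D. Those mRNAs made up 5.58 to 5.98% of counts in POLR1A-depleted cells, 8.68 to 10.4% in POLR2A-depleted cells and 3.42 to 3.54% under actinomycin D, against 6.06 to 8.17% in controls, and a change in this share cannot show whether these mRNAs or the rest of the RNA moved. Relative to the median, ZFP36 under actinomycin D was at -2.12 under that scaling and -2.18 under both TMM and library totals. In the same order, ELAVL1 was at 0.49, 0.46 and 0.46, and TIAL1 at -0.22, -0.24 and -0.25. A change of scaling moves the median and each gene by nearly the same amount. These values therefore had to stay close and are no test of the scaling. With no median taken off, values scaled to mitochondrial mRNAs under actinomycin D were -1.3 for ZFP36, -0.39 for ZFP36L1 and -0.57 for ZFP36L2. The other 6 were called higher. These are changes relative to the mitochondrial mRNAs, not amounts per cell. On that scaling in POLR1A-depleted cells, ZFP36L2 was at -1.23 and ZFP36L1 lost its call (-0.15, adjusted p = 0.408). HNRNPD and AUH turned to 0.11 and 0.05 with no call, and ZFP36 (0.56) and TIA1 (0.44) were called higher.

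**Figure D4:**
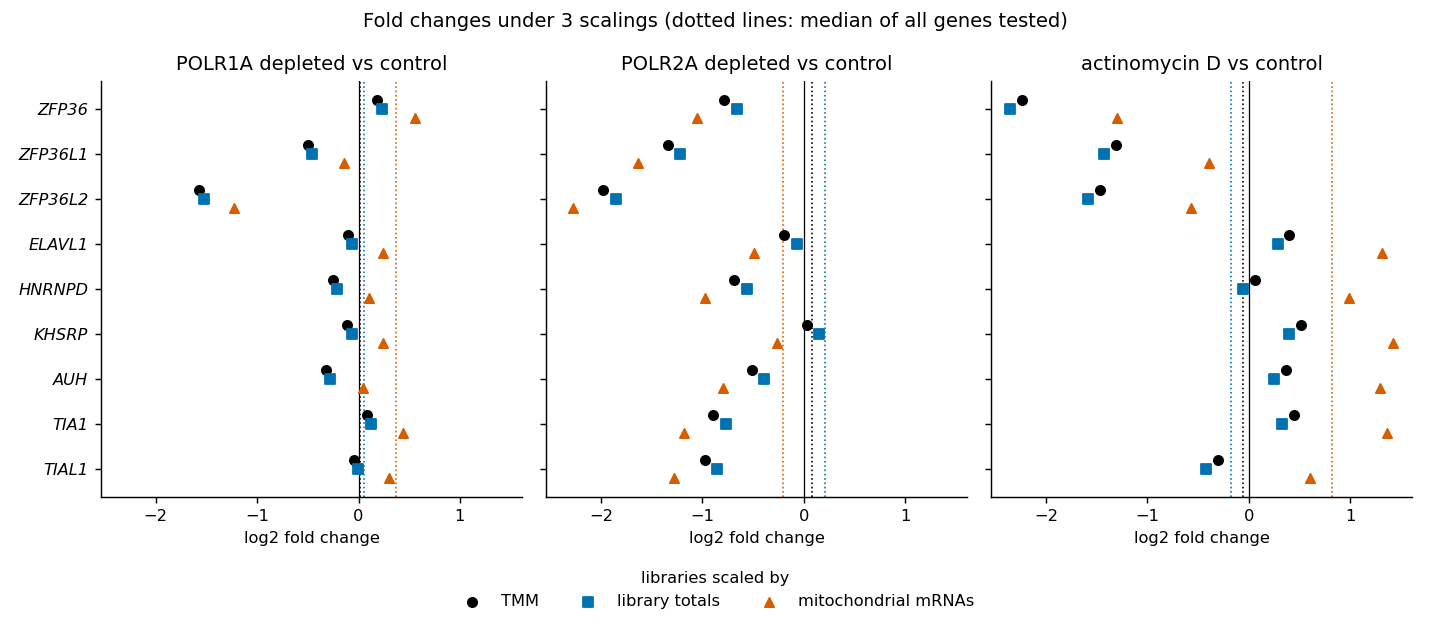
log2 fold change of the 9 genes against control with libraries scaled by TMM, by library totals or to mitochondrial mRNAs; dotted lines are the median of all tested genes under each scaling. Under actinomycin D the median moves from -0.06 under TMM to 0.82 under mitochondrial scaling, and TIAL1 turns from -0.30 to 0.60, while ZFP36, ZFP36L1 and ZFP36L2 stay left of 0 under all 3.

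Genes around the members were taken from lists drawn up with earlier results of these data known. Each count below stands against the shares of all 23599 tested genes called in the same comparison, with the share of the more abundant genes in parentheses. In POLR1A-depleted cells these were 20.5% higher (34.1%) and 18.6% lower (30.5%), in POLR2A-depleted cells 33.2% higher (22.7%) and 28.2% lower (50.1%), and under actinomycin D 24.9% higher (44.6%) and 28.5% lower (34.5%). Of 17 other proteins that bind AU-rich or U-rich RNA 14 were tested, of which 6 were lower and 0 higher in POLR1A-depleted cells, 11 lower and 3 higher in POLR2A-depleted cells, and 4 lower and 7 higher under actinomycin D. HNRNPDL, the closest relative of HNRNPD, fell by 0.68 in POLR1A-depleted cells (SE 0.07) and by 1.37 in POLR2A-depleted cells (SE 0.07). DHX36, a helicase that binds AU-rich and G-quadruplex RNA, fell by 1.24 in POLR2A-depleted cells (SE 0.07) and by 0.79 under actinomycin D (SE 0.06). The list's medians were -0.21, -0.53 and 0.15 in POLR1A-depleted, POLR2A-depleted and actinomycin D cells. The neuronal relatives of ELAVL1, namely ELAVL2, ELAVL3 and ELAVL4, had at most 0.249 CPM in any library and were not tested.

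The deadenylases and decapping factors through which the ZFP36 family acts were all tested. Of these 22 genes 12 were higher and 4 lower in POLR1A-depleted cells, 1 higher and 17 lower in POLR2A-depleted cells, and 10 higher and 6 lower under actinomycin D, with medians of 0.18, -0.47 and 0.11. The decapping factors DCP1B and DCP2 rose by 0.97 (SE 0.13) and 0.74 (SE 0.05) and the 5′ exonuclease XRN1 by 0.74 (SE 0.06) in POLR1A-depleted cells. CNOT6L, a catalytic deadenylase subunit, fell by 1.55 (SE 0.09) in POLR2A-depleted cells, and CNOT2, a scaffold subunit, fell by 1.28 (SE 0.06) there and by 1.24 (SE 0.06) under actinomycin D. Between the 2 depletions, 19 of the 22 were higher in POLR1A-depleted cells and 1 lower, where 29.1% of all tested genes were higher and 33.1% lower (52.4% and 21.8% of the more abundant ones).

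The kinase MK2, acting downstream of p38, phosphorylates ZFP36 and so brings it to 14-3-3 proteins, which hold it inactive. Of 20 genes of this axis 19 were tested, with 11 higher and 4 lower in POLR1A-depleted cells, 6 higher and 9 lower in POLR2A-depleted cells, and 10 higher and 7 lower under actinomycin D (medians 0.21, -0.15 and 0.14). MAPK14, which encodes p38 alpha, fell by 0.79 (SE 0.07) in POLR2A-depleted cells. SFN, an epithelial 14-3-3 protein, and MAP2K3, a kinase that activates p38, fell by 1.58 (SE 0.06) and 1.09 (SE 0.05) under actinomycin D. HSPB1, a small heat shock protein and MK2 substrate, rose there by 0.85 (SE 0.09).

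Of 38 mRNAs known to carry AU-rich elements, the possible targets, 33 were tested, and 19 of the 38 held a TTATTTATT (50.0%, against 7.08% of 19546 protein-coding genes with a 3′ UTR). The list was chosen for such elements, so its higher share describes that choice and is not a result. In POLR1A-depleted cells 12 were higher and 11 lower, in POLR2A-depleted cells 10 were higher and 17 lower, and under actinomycin D 5 were higher and 20 lower, with medians of -0.14, -0.35 and -1.70. MYC, the growth regulator, fell by 5.94 (SE 0.10) under actinomycin D. KLF2 and DUSP1, a transcription factor and a phosphatase that switches off p38, fell by 3.93 (SE 0.34) and 3.60 (SE 0.19) under actinomycin D. CDKN1A, the cell-cycle inhibitor p21 and a p53 target, rose by 3.39 (SE 0.06) in POLR1A-depleted cells, where MYC fell by 2.40 (SE 0.08) and PTGS2, the inducible cyclooxygenase, rose by 2.27 (SE 0.32). The interleukin genes IL1A and IL1B had 82 and 84 counts over the POLR2A-depleted libraries against 9 and 9 over controls, in the same libraries as the blood markers given above.

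Partners of TIA1 and TIAL1 in stress granules and of AUH in leucine breakdown completed the lists. Of 20 stress granule genes 5 were higher and 9 lower in POLR1A-depleted cells, 1 higher and 15 lower in POLR2A-depleted cells, and 12 higher and 7 lower under actinomycin D (medians -0.12, -0.43 and 0.15). G3BP1, a core of the granule, fell by 0.58 (SE 0.05) in POLR1A-depleted cells, and its binding partner USP10 fell by 0.98 (SE 0.05) in POLR2A-depleted cells. The m6A readers YTHDF2 and YTHDF1 fell by 1.92 (SE 0.06) and 1.80 (SE 0.06) under actinomycin D. Of 9 genes of leucine breakdown 8 were higher and 0 lower under actinomycin D, 3 and 3 in POLR1A-depleted cells, and 4 and 1 in POLR2A-depleted cells (medians 0.61, -0.22 and 0.16). BCKDHA, a subunit of the branched-chain dehydrogenase, rose by 1.21 (SE 0.10) under actinomycin D.

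For each member the 10403 more abundant genes with a symbol were searched for the most similar pattern, by Pearson correlation of log2 CPM over the 12 libraries. These libraries share groups and scaling, so the values describe likeness and carry no p-value. ZFP36 was closest to RBM38 (r = 0.997), which encodes another RNA-binding protein, and to WDR33 (0.996), a factor of 3′ end processing. ZFP36L1 was closest to WDR43 (0.995) and POGK (0.993), and ZFP36L2 to MAT2A (0.981) and LRFN1 (0.980). ELAVL1 was closest to SEPTIN3 (0.988) and CTBP1 (0.986), HNRNPD to RBMX (0.983) and EIF2S2 (0.976), and KHSRP to SLC25A23 (0.993) and LMNB2 (0.992). AUH was closest to HNRNPR (0.972), TIA1 to TCF12 (0.993) and TIAL1 to UBE3A (0.994). Among the members themselves r was highest for ELAVL1 with KHSRP, at 0.906, and lowest for ZFP36 with KHSRP, at -0.925.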

How the data were processed

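Total RNA, depleted of ribosomal RNA per the labels' protocols, was sequenced with a stranded kit in 12 libraries. The deposited values are estimated counts per gene, of which 76.1% are whole numbers. Tools listed in the submitters' processing notes include RSEM 1.3.3, STAR, HTSeq 2.0.2 and DESeq2 1.44.0, with build GRCh38 and no step given for any. The strand setting is not given in the sources used here, so antisense overlaps are uncertain (for HNRNPD, 161.6 antisense counts against 59944.4), as are reads that paralogues share.

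Counts were rounded to whole numbers and tested with edgeR 4.0.16 (R 4.3.3): filterByExpr, TMM, a robust quasi-likelihood fit of all 12 libraries with a mean per group (8 residual degrees of freedom) and 6 contrasts. limma 3.58.1 and DESeq2 1.42.0 served as alternatives. This fit was first tested on simulated data with known changes. Levels per kb use the exon union of GENCODE 29. The precision comes from 3 dishes per group. No pair of replicates agreed within sampling noise (chi-square per degree of freedom 3.49 to 9.37).

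The members and lists were chosen with earlier results of these data known. The named genes are the members, POLR1A, POLR2A, up to 3 genes per list and comparison with controls with the largest called changes, and the 2 genes most like each member, of which part is printed. Markers, ELAVL2 to ELAVL4, ALB and CD14 are named beside them.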

Additional observations from a re-analysis of the deposited data

How the results depend on the processing

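All 54 fold changes of the members (9 genes in 6 comparisons) kept their side of the threshold with RLE size factors, DESeq2 and limma-voom. The same held in a fit of only the 2 groups compared and with a replicate block. No called value changed direction in these fits, and direction was not compared where neither fit gave a call. Equal replicate numbers did not pair the libraries: 2 of 18 same-numbered pairs had deviations correlated above 0.1 (-0.166 to 0.132), and 3 of 12 libraries correlated best with their own number. With the replicate block 4655 genes were higher and 4180 lower with POLR1A depleted, 7575 and 6519 with POLR2A depleted, and 5702 and 6466 with actinomycin D. Scaling to mitochondrial mRNAs changed the most. Against controls it gave 1263 genes lower (4380 by TMM) with POLR1A depleted, 5044 higher (7831) with POLR2A depleted, and 11900 higher (5881) and 2061 lower (6718) with actinomycin D, so higher genes made up 85.1%, 38.6% and 85.2% of calls, not 52.5%, 54.1% and 46.7%. It gave 11334 higher and 3931 lower for POLR1A minus POLR2A depletion, 9257 and 3495 for actinomycin D minus POLR1A depletion, and 12913 and 4332 for actinomycin D minus POLR2A depletion. It turned HNRNPD (0.11) and AUH (0.046) with POLR1A depleted, TIAL1 with actinomycin D (0.60), KHSRP between depletions (0.50) and TIAL1 between actinomycin D and POLR1A depletion (0.31), and ended the calls of ZFP36 between actinomycin D and POLR2A depletion (-0.25) and of ZFP36L1 between actinomycin D and POLR1A depletion (-0.24). Library totals alone turned ZFP36L1 between actinomycin D and POLR2A depletion to -0.21 and ended the call of ZFP36L2 there (0.27). With no filter on low counts 49 of the 54 kept their call, 3 lost it and 2 gained it. With lengths of the longest transcript the shares of ZFP36, ZFP36L1 and ZFP36L2 were 18.3%, 77.3% and 4.36% with POLR1A depleted, 16.8%, 77.3% and 5.92% with POLR2A depleted, 6.54%, 84.5% and 8.94% with actinomycin D, and 11.6%, 79% and 9.39% in controls. Leaving out each library changed 26 of 648 member calls and no direction of a call. The cause of these differences was not tested.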

Other observations

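AU-rich letters in the 3′ UTR were also set beside the fold changes of the other tested genes with a protein-coding 3′ UTR. The 9 members were left out, and this is a description without a test. Genes with a TTATTTATT numbered 1140, genes with ATTTA but no TTATTTATT numbered 8591, and genes with no ATTTA numbered 4993. Their 3′ UTRs also differed in length, with medians of 2734, 1507 and 309 bases, and the part of length was not tested. With POLR1A depleted 41.7% of the genes with a TTATTTATT were higher and 20.3% lower (median 0.16), and 31.1% and 24.3% of those with ATTTA alone (median 0.07), against 22.7% higher and 24.8% lower of those with no ATTTA (median 0.00). With POLR2A depleted the shares were 29.1% higher and 44.8% lower (median -0.13) with the nonamer and nearly the same with ATTTA alone, at 31.1% and 42.9% (median -0.12), against 34.7% and 31.4% (median 0.06) with no ATTTA. With actinomycin D they were 30.3% higher and 36.6% lower (median -0.03), and 35.0% and 32.6% with ATTTA alone (median 0.03), against 38.4% and 24.8% (median 0.18) with no ATTTA. Of the 38 mRNAs listed above as known carriers, the 33 tested had a median of -1.70 with actinomycin D. The wider group of genes with the nonamer lay much nearer to 0 there. The list was drawn up with earlier results of these data known, and 19 of its 38 genes hold the nonamer. The sets thus differ in how they were chosen, and no conclusion is drawn from the contrast.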
